A study of Mus musculus with 4 samples.

Results

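The immediate early transcription factor genes Fos, Fosb, Fosl2, Jun, Junb, Jund, Egr1 and Egr2, the immediate early gene Ier2 and the phosphatase gene Dusp1 were followed in glial progenitors with and without the RNA-binding protein Quaking. The 10 genes were selected by symbol from the 35857 genes listed for each library, with earlier results of these data known. All 10 were tested, since each averaged 1 TPM or more over the 4 libraries, as did 13260 genes in all. TPM is a gene's abundance per transcript length as a share of all transcripts, so levels of different genes can be compared. The 4 libraries came from mouse neural stem cells of embryonic cerebral cortex (strain C57BL/6), collected 24 hr after glial differentiation was induced, 2 of wild type genotype (control) and 2 of genotype Qk-/- (Qk_KO). The labels name no Cre driver or other allele, give no animal age, and do not state if libraries of 1 group are separate cultures. The p-values thus rest on the spread between these libraries, partly pooled over genes by the test, and that spread may be partly technical.

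Immediate early genes are transcribed within minutes of a stimulus, without new protein synthesis. Growth factor and stress signals reach them through MAP kinases, which act on serum response factor and its ternary complex partners at CArG boxes, and through CREB at cAMP response elements. Fos and Jun proteins pair through leucine zippers into AP-1, Egr proteins bind GC-rich sites through zinc fingers, and Dusp1 dephosphorylates MAP kinases as a feedback inhibitor. Their messenger RNAs are short-lived, in many cases through AU-rich sequences in the 3' untranslated region.

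Dusp1 was the only one of the 10 genes that passed the test, and it was higher in Qk_KO: 67.5 ± 9.18 TPM against 37.8 ± 1.72 TPM in control (SD, n = 2 per group). None of the 9 other genes passed. Of these, 8 had a log2 fold change below 0, beside 45.6% of all genes tested. For 7 of the 8 both Qk_KO libraries lay below both control libraries. The 95% interval of the log2 fold change lay below 0 for Fosl2, at 55.5% of the control mean, Egr1 at 62.4% and Junb at 80.1%, while Ier2 stood at 102%. Differences were tested with limma on log2(TPM + 1), with p-values adjusted by Benjamini-Hochberg across the whole table, and an adjusted p under 0.05 counted as passing.

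Among all genes tested, 3.24% passed that threshold, 1.83% higher and 1.42% lower in Qk_KO, and 28.4% had an unadjusted p under 0.05, which 4 of the 10 genes had. The libraries of the groups did not overlap for 61.1% of all genes tested, 27.5% with Qk_KO below and 33.6% with Qk_KO above, beside 8 of the 10 genes here, 7 below and 1 above. The median log2 fold change was -0.25 over the 10 genes and 0.04 over all genes tested. These shares are descriptions, since the 10 genes are neither independent of each other nor replicates of the condition.

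**Figure D1:**
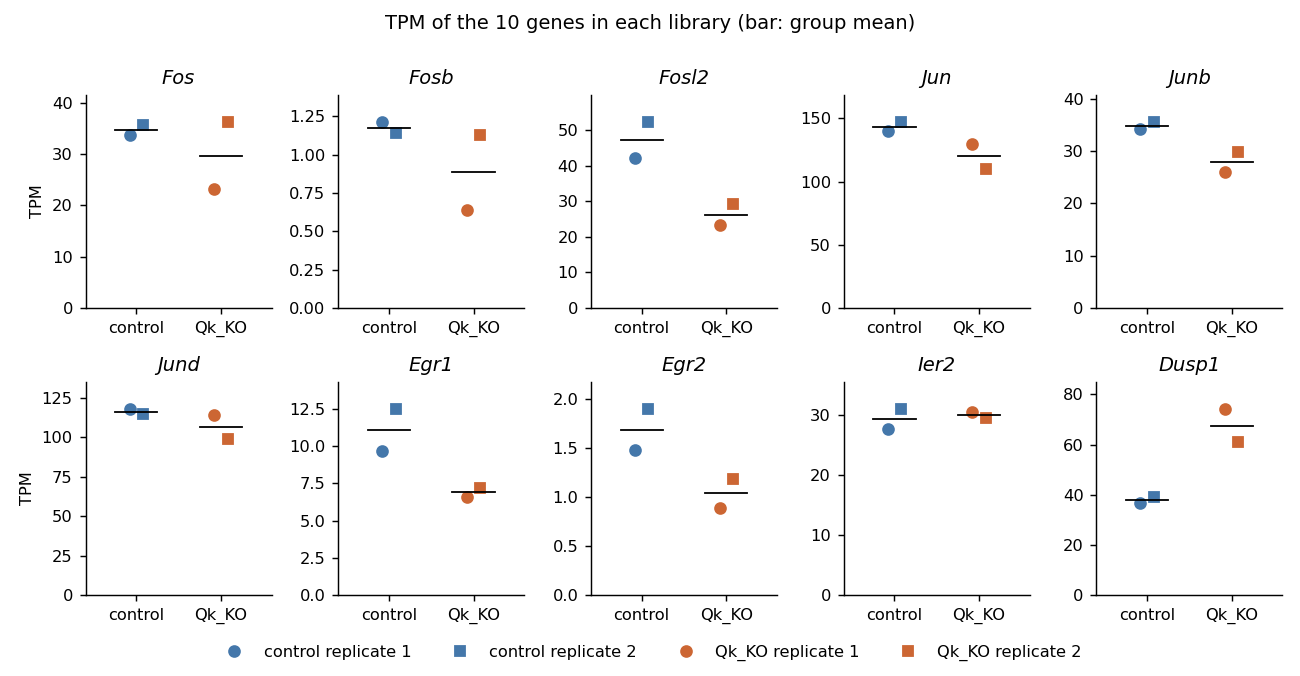
TPM (vertical axes, from 0, scaled per gene) of each of the 10 genes in the 2 control and 2 Qk_KO libraries, with circles for replicate 1, squares for replicate 2 and a bar at each group mean. Dusp1 is the gene whose Qk_KO libraries both lie above the controls, and Fos and Ier2 are the genes whose groups overlap.

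The targeted gene separated the groups. Qk was at 208 and 215 TPM in control and at 36.1 and 43.7 TPM in Qk_KO. Its log2 fold change was -2.38 (SE 0.12, adjusted p = 0.00708). That call was lost without control replicate 1 and without control replicate 2, in fits that leave 1 control library. The log2 fold change was then -2.41 and -2.36. Each library listed 18846 to 19387 genes above 0, and the depth behind each value is unknown, because TPM keeps none.

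Markers of the labelled cell type were present in every library: 6 neural stem cell and radial glia genes, Sox2, Nes, Fabp7, Hes1, Vim and Slc1a3, summed to 5961 to 6164 TPM. Fabp7 and Vim made up most of that sum, and 1 of the 6 passed the test: Slc1a3, a glutamate transporter gene, was lower in Qk_KO, at 338 and 435 TPM in control and 117 and 150.04 TPM in Qk_KO (adjusted p = 0.0324). The 5 oligodendrocyte precursor genes summed to 1154 and 916 TPM in control and 889 and 1079 TPM in Qk_KO, an overlap set by Olig1 and Olig2. The 3 others lay below control in both Qk_KO libraries: Pdgfra at 19.7% of the control mean (adjusted p = 0.0461), Sox10 at 17.1% (0.0701) and Cspg4 at 60.0% (0.174).

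The astrocyte list did not move as a whole. Its 5 genes summed to 106 and 101 TPM in control and 303 and 218 TPM in Qk_KO, with Aqp4 at 740% of the control mean (adjusted p = 0.0123) and Aldh1l1 at 398% (0.0569), while S100b stood at 10.7% (0.0761), Gfap overlapped between the groups and Gjb6 was under 1 TPM. The 5 neuron genes summed to 454 and 291 TPM in control and 696 and 600.3 TPM in Qk_KO. Most of that difference was in Tubb3, at 275 and 126 TPM in control and 512 and 383 TPM in Qk_KO (adjusted p = 0.104). Of the neuron genes Snap25 passed, higher in Qk_KO (adjusted p = 0.0481). Rbfox3 lay above control in both Qk_KO libraries without passing (0.277), and Dcx and Map2 overlapped between the groups. The 4 ependymal and choroid plexus genes summed to 20.1 and 17.2 against 25.2 and 19.6 TPM, which overlapped, although Folr1 passed, from 0.33 and 0.44 TPM to 5.65 and 3.93 TPM (adjusted p = 0.0326).

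The 10 microglia and macrophage genes summed to 37.6 and 30.3 TPM in control and 18.1 and 11.7 TPM in Qk_KO, with 4 of them under 1 TPM in every library and P2ry12 at or under 0.04 TPM. The 6 pericyte and fibroblast genes summed to 1316 and 1151 TPM in control and 3501 and 1621 TPM in Qk_KO, mostly through Acta2 (adjusted p = 0.148). Col1a1 ran the other way, at 26.6 and 20.4 TPM in control and 16.1 and 15.9 TPM in Qk_KO (adjusted p = 0.11). The remaining 4 of the 6 were under 1 TPM in every library. The 6 endothelial genes summed to 3.24 and 3.57 TPM in control and 5.09 and 5.14 TPM in Qk_KO, mostly through Kdr, at 2.59 and 3.16 against 4.11 and 3.97 TPM (adjusted p = 0.24). The 5 others were under 1 TPM, with Cldn5 and Cdh5 at or under 0.05 TPM. The erythroid list of 6 genes, 2 of them at 0 throughout, summed to 0.05 to 1.56 TPM.

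The sums of the astrocyte, neuron, microglia, pericyte and endothelial lists thus did not overlap between the groups, while the sums of the other lists did. Of all genes tested, taken singly, 61.1% did not overlap either. The part of these lists in the values of the 10 genes was not tested. Each of the 5 marker genes that passed lost the call when either control was left out. Leaving out Qk_KO replicate 1 ended the call for Slc1a3, Pdgfra, Snap25 and Folr1, and leaving out Qk_KO replicate 2 ended it for Snap25. Such fits leave 1 library in a group, and most calls across all genes tested were then lost. Over all other settings the log2 fold change was -1.71 to -1.35 for Slc1a3 and -2.81 to -1.77 for Pdgfra. It was 2.49 to 2.86 for Aqp4, 0.89 to 1.36 for Snap25 and 1.83 to 3.32 for Folr1. In such bulk samples fewer cells of a type and less RNA per cell cannot be told apart.

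By level, the 10 genes fell into tiers. Jun and Jund stood highest, with means over the 4 libraries of 132 and 111 TPM, and the lowest Jund library, at 98.7 TPM, lay above every Dusp1 value. Dusp1, Fosl2, Fos, Junb and Ier2 followed with means between 29.7 and 52.7 TPM, and their ranges overlapped from each neighbour to the next. Egr1 came next at a mean of 8.97 TPM, and Egr2 and Fosb, at 1.36 and 1.03 TPM, were the lowest. Jun was above Jund in 4 of 4 libraries, although their ranges overlapped. Fosb was only just inside the minimum mean of 1 TPM.

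Among the Fos family subunits of AP-1, which cannot pair with each other and need a Jun partner, Fosl2 had a lower p than Fos and Fosb. Fosl2 (also called Fra-2; Entrez gene 14284, chr5:32136472-32157840) was at 42.1 and 52.1 TPM in control, replicate 1 being given before replicate 2 here and throughout, against 23.2 and 29.1 TPM in Qk_KO. Both Qk_KO libraries were below both controls. Its log2 fold change was -0.83 (SE 0.16, 95% interval -1.24 to -0.41) with an adjusted p of 0.0561, just over the threshold. It passed under 5 of 16 other settings, among them with small RNA genes left out (adjusted p = 0.0457), when 5 TPM was the lowest mean tested (0.0488), and with the trend on transcript GC content removed (0.0452). Without 1 library its log2 fold change lay between -0.98 and -0.67, and it did not pass.

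Fos (Entrez gene 14281, chr12:85473890-85477274), the prototype of the family, was at 33.7 and 35.6 TPM in control and at 23.2 and 36.2 TPM in Qk_KO. Qk_KO replicate 1 was low and Qk_KO replicate 2 was above both controls, so the groups overlapped. The log2 fold change of -0.25 (SE 0.21, 95% interval -0.78 to 0.28, adjusted p = 0.482) rested on Qk_KO replicate 1, without which it was 0.06. Fosb (Entrez gene 14282, chr7:19302696-19310118), which also gives rise to a truncated splice form that a TPM per gene does not separate, was at 1.21 and 1.14 TPM in control and at 0.64 and 1.13 TPM in Qk_KO. The values of Qk_KO replicate 2 and control replicate 2 were nearly equal, and the log2 fold change of -0.22 (SE 0.26, adjusted p = 0.607) is understated by the pseudocount of 1 at this level.

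The summed level of the family, including Fosl1, was 89.9 and 109 TPM in control and 48.6 and 72.0 TPM in Qk_KO. Fosl1 (Fra-1), which is not among the 10 genes and was looked at after its values were seen, was at 12.97 and 20.3 TPM in control and 1.65 and 5.53 TPM in Qk_KO, or -2.05 on the log2 scale (SE 0.45, adjusted p = 0.0655). It passed under 3 of 16 other settings, 1 of them without Qk_KO replicate 2. The log2 fold change was -2.70 without Qk_KO replicate 2 and -1.40 without Qk_KO replicate 1. Its share of the family sum was 14.4% and 18.6% in control and 3.39% and 7.68% in Qk_KO, whereas the share of Fos was 37.4% and 32.6% against 47.6% and 50.3%. Fosl2 kept a share between 40.5% and 47.7% in the 4 libraries.

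The Jun family subunits, which pair with Fos proteins or with each other, differed by less. Jun (Entrez gene 16476, chr4:95049036-95052222) was at 139.9 and 147 TPM in control and 129.98 and 109.8 TPM in Qk_KO, and Jund (Entrez gene 16478, chr8:70697739-70700616), the most steadily expressed Jun gene, at 118 and 114 TPM against 114 and 98.7 TPM. Junb (Entrez gene 16477, chr8:84976909-84978748) was at 34.3 and 35.4 TPM in control and 26.0 and 29.9 TPM in Qk_KO. For all 3 genes Qk_KO lay below control without overlap, for Jund by the least: its closest control and Qk_KO libraries were at 114.5 and 113.9 TPM. Their log2 fold changes were -0.26, -0.13 and -0.31 (SE 0.11, 0.11 and 0.12), with adjusted p of 0.203, 0.465 and 0.157. The 95% intervals, -0.54 to 0.02 for Jun, -0.39 to 0.14 for Jund and -0.61 to -0.02 for Junb, did not reach a log2 fold change of -1 or 1.

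The make-up of the Jun family hardly varied. Jun held 46.1% to 49.5% of its summed TPM, Jund 38.6% to 42.2% and Junb 9.63% to 12.5%. The sum was 292 and 297 TPM in control and 270 and 238 TPM in Qk_KO, so that Jun family transcripts outnumbered Fos family transcripts 3.24 and 2.72 times in control and 5.55 and 3.31 times in Qk_KO. These ratios did not overlap between the groups, but Qk_KO replicate 2 lay close to control replicate 1. That separation depends on Fosl1, which is in the Fos family sum but not among the genes selected. With Fosl1 left out, Qk_KO replicate 2 falls below control replicate 1 and the groups overlap. Annotated exons of 3 Jun genes overlap genes on the other strand: Jun shares 232 bases with Junos, Junb 173 bases with Prdx2 and Jund 877 bases with Gm11175. The strand setting of the counting is not given in the sources used here, so reads in the shared parts cannot be assigned with certainty. Prdx2 was far more abundant than Junb, at 1028 and 933 TPM in control and 1638 and 1459.86 TPM in Qk_KO, and its difference ran opposite to that of Junb.

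**Figure D2:**
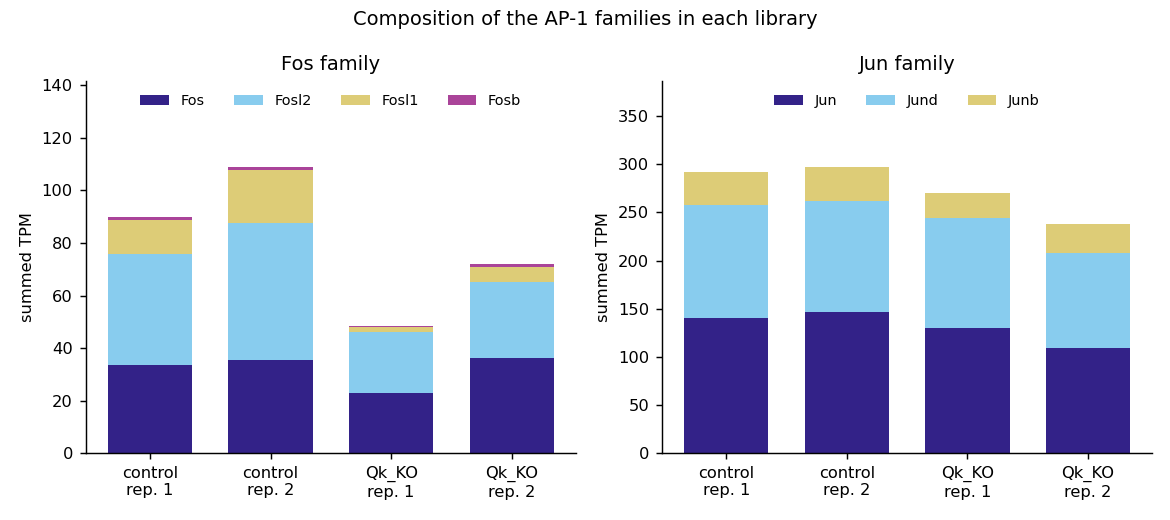
Stacked bars of TPM (vertical axes, from 0) for the Fos family on the left and the Jun family on the right, 1 bar per library, with 1 colour per gene. The Fos family sum is 89.9 and 109 TPM in control and 48.6 and 72.0 TPM in Qk_KO. The Fosl1 part is thinner in both Qk_KO libraries than in either control, and Fosb is the thinnest part of every Fos bar. The 3 Jun genes keep similar shares in all 4 libraries.

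Of the Egr zinc finger factors, Egr1 (also called Krox24 or Zif268; Entrez gene 13653, chr18:34861207-34864956) was at 9.64 and 12.5 TPM in control and at 6.60 and 7.18 TPM in Qk_KO. Both Qk_KO libraries were below both controls, and the controls differed from each other by more than the Qk_KO libraries did. The log2 fold change was -0.60 (SE 0.17, 95% interval -1.03 to -0.17) with an adjusted p of 0.0995. Egr2 (Krox20; Entrez gene 13654, chr10:67534469-67542188), known as a regulator of Schwann cell myelination and hindbrain patterning, was at 1.48 and 1.89 TPM in control and 0.89 and 1.18 TPM in Qk_KO, also without overlap. Its log2 fold change was -0.40 (SE 0.24, 95% interval -0.99 to 0.19) with an adjusted p of 0.317. The Egr corepressor genes Nab1 and Nab2 did not pass either. Nab1 was at 18.3 and 21.8 TPM in control and 19.9 and 19.5 TPM in Qk_KO, and Nab2 at 47.9 and 56.3 against 39.6 and 43.5 TPM.

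Ier2, a short immediate early gene for a nuclear protein (Entrez gene 15936, chr8:84661331-84662852), was at 27.7 and 30.9 TPM in control and at 30.6 and 29.5 TPM in Qk_KO. The Qk_KO values lay between the control values. Its log2 fold change was 0.04 (SE 0.11, adjusted p = 0.86), with a 95% interval from -0.25 to 0.32.

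Dusp1 (also called MKP-1; Entrez gene 19252, chr17:26505591-26508472) ran the other way. The control libraries held 36.6 and 39.1 TPM, against 74.0 and 61.1 TPM in Qk_KO. The lowest Qk_KO library was well above the highest control, and the gap between the groups exceeded the spread within either. The log2 fold change was 0.81 (SE 0.13, 95% interval 0.49 to 1.13) with an adjusted p of 0.0434, rank 648 from the top among the 13260 genes. The call was near the threshold and was lost without any 1 of the 4 libraries. Such a fit leaves 1 library in a group, and most calls across all genes tested were then lost. The log2 fold change of Dusp1 lay between 0.68 and 0.95 in these fits. Its call was also lost with no filter on low values (adjusted p = 0.139), without limma's trend (0.0805) and with quantile normalization (0.0502).

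Set against the transcription factor genes, Dusp1 stood at 1.09 and 1.10 times the TPM of Fos in control and 3.20 and 1.69 times in Qk_KO. Against Fosl2 the ratio was 0.87 and 0.75 in control and 3.19 and 2.10 in Qk_KO, and against Egr1 3.80 and 3.13 in control and 11.2 and 8.50 in Qk_KO. In each of these 3 ratios both Qk_KO libraries were above both controls. For Fosl2 and Egr1 that follows from the TPM values above, where Dusp1 was higher and they were lower without overlap. For Fos, whose own groups overlapped, the separation was set by the Dusp1 values. Dusp1 shares 11 annotated exonic bases with Ergic1 on the other strand, which was at 116 and 117 TPM in control and 169 and 171 TPM in Qk_KO. The part of this overlap in the Dusp1 values was not tested.

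**Figure D3:**
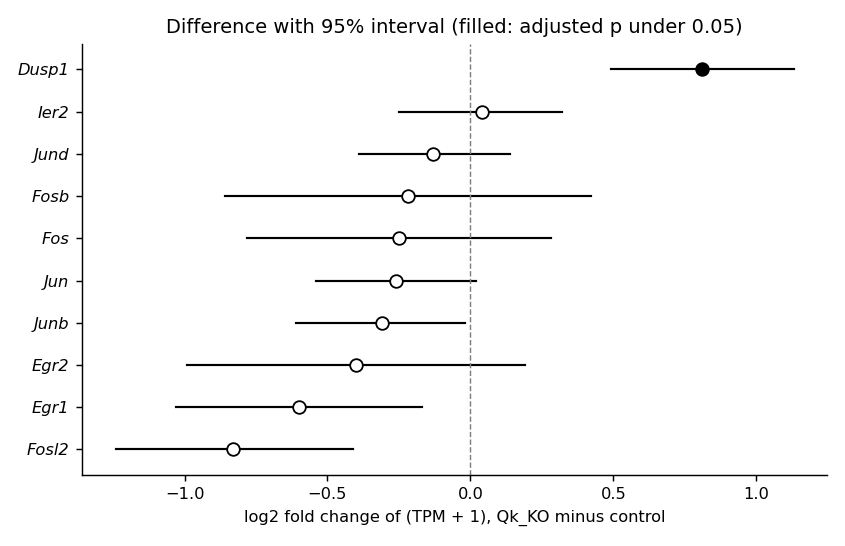
Log2 fold change of (TPM + 1), Qk_KO minus control (horizontal axis), for each of the 10 genes, with its 95% interval from limma as a line and a filled point where the adjusted p is under 0.05. Dusp1 at 0.81 is the filled point, and the intervals of Fosl2, Egr1 and Junb lie below 0 without passing the adjusted threshold.

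The sequences around the start sites were searched for the elements through which immediate early genes are known to be induced, and some are shown. The part of these elements in the differences between the groups was not tested. RefSeq windows on GRCm38.p6, from 250 bases before to 50 after an annotated start, were found for 8 of the 10 genes, all but Egr1 and Ier2. Both strands were searched for the CArG box, the cAMP response element TGACGTCA, its core TGACG (which lies inside the full element), the AP-1 site TGANTCA and the Egr site GCGNGGGCG. Of all 32851 windows in the table, 1.63% held a CArG box, 1.79% the full cAMP response element, 20.8% its core, 7.81% the AP-1 site and 5.55% the Egr site. A match is only a run of letters, and a window without one says nothing about elements elsewhere.

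The Dusp1 window (chr17:26508423-26508722, minus strand, printed 5' to 3' along the gene with matches in capitals) was the only one of the 8 genes' windows with the full TGACGTCA, which began 143 bases before the start, and it held another core 191 bases before it.
Dusp1: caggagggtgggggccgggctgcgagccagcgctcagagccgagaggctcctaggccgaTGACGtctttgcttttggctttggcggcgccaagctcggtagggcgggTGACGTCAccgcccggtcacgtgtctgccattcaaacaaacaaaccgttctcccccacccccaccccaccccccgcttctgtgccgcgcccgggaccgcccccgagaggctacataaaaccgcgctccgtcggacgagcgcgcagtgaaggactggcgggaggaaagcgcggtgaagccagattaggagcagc

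In Fos the core TGACG stood alone, 129 and 66 bases before the start, and in Egr2 2 cores flanked a CArG box that began 72 bases before 1 of its annotated starts (5 windows in the table, 1 of the others with a second, different CArG box). Fosb had a core 60 bases and an Egr site 50 bases before its start, Fosl2 had an Egr site at 79 bases, and Junb a core at 106 bases. The windows of Jun and Jund held none of the motifs searched (the RefSeq start of Jund lies upstream of the GENCODE M21 start), and no window of the 8 genes held the AP-1 site. The parts with matches, in capitals, are Fos chr12:85473749-85473840 (plus strand), Egr2 chr10:67537746-67537830 (plus), Fosb chr7:19310075-19310117 (minus), Fosl2 chr5:32136381-32136413 (plus) and Junb chr8:84978838-84978866 (minus).
Fos: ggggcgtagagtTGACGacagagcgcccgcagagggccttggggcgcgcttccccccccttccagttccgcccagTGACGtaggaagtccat
Egr2: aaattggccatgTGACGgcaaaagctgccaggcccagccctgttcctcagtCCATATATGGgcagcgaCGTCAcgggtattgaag
Fosb: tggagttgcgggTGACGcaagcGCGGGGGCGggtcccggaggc
Fosl2: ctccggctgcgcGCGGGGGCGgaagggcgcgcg
Junb: gcttcctgacagTGACGcgagccgcctcc

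Because the knocked-out protein binds RNA, the 3' untranslated regions of GENCODE M21 (1 transcript per gene, GRCm38) were searched for the Quaking motif ACTAAC or ACTAAT, written as DNA. It was present in 2 of the 10 genes, Fos and Egr2, beside 34.9% of the 12237 genes tested that had an annotated region. In Fos 2 copies overlapped in 1 run 349 bases after the stop codon (chr12:85476797-85476826, plus strand), and Egr2 had 1 copy at 772 bases and 1 at 1135 bases (chr10:67541749-67541776 and chr10:67542112-67542139, plus strand). These are the genes at 33.7 and 35.6 against 23.2 and 36.2 TPM and at 1.48 and 1.89 against 0.89 and 1.18 TPM above, neither of which passed the test. The sites are shown with the motif in capitals.
Fos 3' site: ttctcatagcACTAACTAATctgttgggtt
Egr2 3' site a: gtcaaaggttaACTAACttatttaaagg
Egr2 3' site b: ataaaaaaaccACTAACtggagttcaga

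The AU-rich heptamer TATTTAT, a form of the element that marks short-lived messages, was present in 6 of the 10 genes, beside 31.2% of the genes with an annotated region. Dusp1 had 3 copies in 690 bases, or 4.35 per kb, Fos 2 in 815 bases, and Fosl2 3 in 4653 bases. Fosb, Jun and Jund had 1 each, and the regions of Junb, Egr1, Egr2 and Ier2 had none. Over all the regions searched the density was 0.289 per kb. The Dusp1 copies, in the gene that rose, are shown in capitals (chr17:26506159-26506187, chr17:26505870-26505898 and chr17:26505674-26505702, minus strand).
Dusp1 3' site a: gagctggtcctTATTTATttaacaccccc
Dusp1 3' site b: gtttttaccttTATTTATttttgtgtagg
Dusp1 3' site c: gtatgtttgttTATTTATgatctgaagta

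Other immediate early genes went both ways. Of 44 tested, 1 rose, 2 fell and 41 did not pass, beside 3.24% of all genes tested that passed. The median log2 fold change was -0.20 beside 0.04 over all genes. Sik1, a salt-inducible kinase that restrains CREB coactivators, rose from 5.49 and 5.27 TPM to 13.8 and 12.1 TPM (log2 fold change 1.12, adjusted p = 0.0393). Cebpd, a bZIP factor of the acute phase response, fell from 49.9 and 57.5 TPM to 24.6 and 16.4 TPM (log2 fold change -1.37, adjusted p = 0.0426), and Maff, a small Maf factor, fell from 42.2 and 60.5 TPM to 24.0 and 24.0 TPM (log2 fold change -1.05, adjusted p = 0.0493). Each of these calls was lost whichever control was left out, in fits that leave 1 control library. Without control replicate 1 and 2 in turn the log2 fold change was 1.148 and 1.099 for Sik1 and -1.475 and -1.272 for Cebpd. For Maff it was -1.301 and -0.793. Sik1 and Maff also lost the call without either Qk_KO library, and Cebpd lost it without Qk_KO replicate 2.

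Among list members that did not pass and were picked after their values were seen, Nr4a2 and Nr4a3, orphan nuclear receptor genes, lay above control in both Qk_KO libraries. Nr4a2 was at 5.25 and 4.79 TPM in control and 8.52 and 16.4 TPM in Qk_KO (adjusted p = 0.0899). Nr4a3 was at 4.33 and 3.92 against 8.15 and 6.36 TPM (0.0893). Nr4a1 overlapped between the groups, at 13.2 and 14.9 against 12.5 and 26.0 TPM (0.522). Myc was at 48.6 and 69.2 TPM in control and 23.4 and 36.7 TPM in Qk_KO (adjusted p = 0.0894). Cyr61, a secreted matrix-associated protein gene, was at 571 and 682 against 392 and 240.5 TPM (0.0701). Ctgf, in the same list, ran the other way, at 149 and 161 against 310 and 196 TPM (0.123). Of the other AP-1 and bZIP partners 0 of 12 rose and 1 fell, Maff again, beside 3.24% of all genes tested that passed. The median of these partners was -0.13.

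Of the other MAP kinase phosphatases tested, 1 of 7 rose and the other 6 did not pass, beside 3.24% of all genes tested that passed. Their median log2 fold change was -0.07. Dusp8, which acts on the stress kinases JNK and p38, rose from 28.8 and 27.8 TPM to 47.3 and 57.6 TPM, by 0.86 on the log2 scale (SE 0.13, adjusted p = 0.0426). Among MAP kinase cascade kinases 2 of 26 rose, 0 fell and 24 did not pass, beside the 3.24% of all genes, with a median of 0.12. Mapk3, the gene of ERK1, rose from 146 and 110.2 TPM to 241 and 228 TPM (adjusted p = 0.048), and Rps6ka2, a ribosomal S6 kinase gene downstream of ERK, from 27.3 and 25.5 TPM to 52.8 and 49.2 TPM (adjusted p = 0.0324). All 3 calls were lost without any 1 library: the adjusted p then lay between 0.0627 and 0.256 for Dusp8, 0.0843 and 0.239 for Mapk3, and 0.0615 and 0.229 for Rps6ka2.

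The transcription factors upstream of immediate early genes did not pass, 0 of 14 in either direction beside 3.24% of all genes tested, with a median of 0.07. Both Qk_KO libraries lay above both controls for 6 of the 14 and below for 2, beside 33.6% and 27.5% of all genes tested. Elk3, picked after its values were seen, was at 21.2 and 20.4 TPM in control and 41.7 and 32.6 TPM in Qk_KO (adjusted p = 0.0522). Srf was at 42.2 and 44.3 TPM in control and 39.6 and 42.6 TPM in Qk_KO, and Ep300, a coactivator gene, at 42.2 and 41.4 against 40.7 and 44.2 TPM. Of the AU-rich element binding proteins 0 of 8 passed, with a median of -0.08. Khsrp was at 127 and 121 TPM in control and 123 and 119.9 TPM in Qk_KO, and Tial1 at 69.0 and 62.3 against 47.0 and 47.1 TPM (adjusted p = 0.0645). Of 11 glucocorticoid-induced genes, a group with which Dusp1 is often listed, 1 rose, Mt1, 0 fell and 10 did not pass, with a median of 0.26. Mt1, a metallothionein, was at 599 and 607 TPM in control and 939 and 872 TPM in Qk_KO (adjusted p = 0.0429). That call was lost without any 1 library, in fits that leave 1 library in a group.

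**Figure D4:**
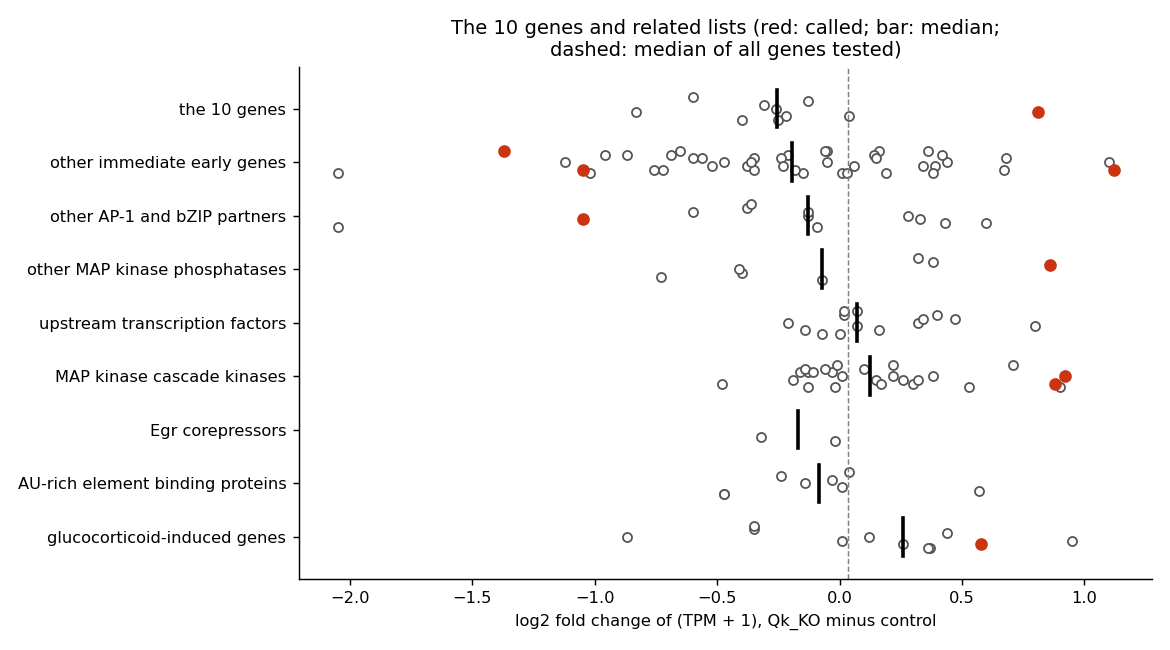
Log2 fold change of (TPM + 1), Qk_KO minus control (horizontal axis), of every gene tested among the 10 genes and 8 related lists (rows), with called genes in red, a bar at each median and a dashed line at the median of all genes tested. Called genes are few in each row, and the medians lie between -0.25 for the 10 genes and 0.26 for the glucocorticoid-induced list.

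The genes most like Dusp1 over the 4 libraries, by Euclidean distance of centred log2(TPM + 1) among 9301 genes of at least 10 TPM on average, were Gsta4, Gm40525, Cdk5rap2, Sorl1 and Irs1, at distances of 0.032 to 0.103 log2 units. Gsta4, a glutathione transferase gene, was at 31.1 and 32.9 TPM in control and 63.97 and 51.1 TPM in Qk_KO. Those most like Fos were Rac3, Fdps, Ramp2, Plk2 and Grid1, at 0.055 to 0.104. Like Fos they were low in Qk_KO replicate 1 alone, as with Fdps, an enzyme of isoprenoid synthesis, at 971 and 1029 TPM in control and 686 and 998 TPM in Qk_KO. With only 4 libraries such likeness is a description and was not tested.

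**Figure D5:**
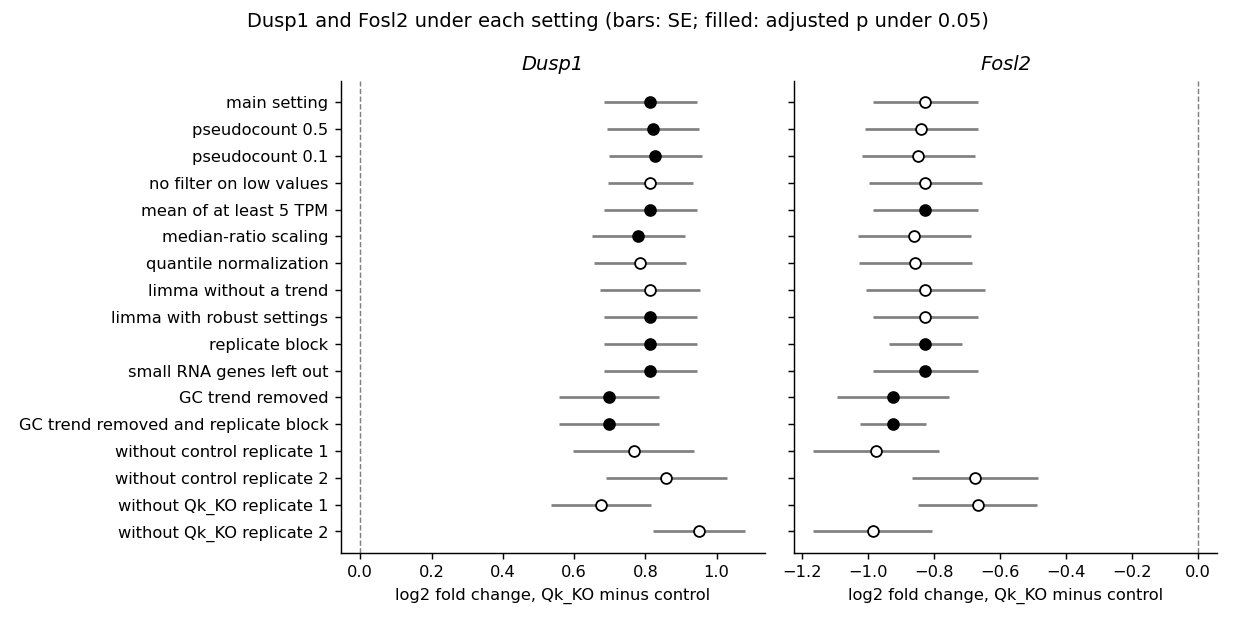
Log2 fold change with its SE (horizontal axes) of Dusp1 on the left and Fosl2 on the right under the main setting and each of 16 other settings (rows), filled where the adjusted p is under 0.05. Dusp1 lies between 0.68 and 0.95 and passes under 9 of the 16, and Fosl2 lies between -0.98 and -0.67 and passes under 5.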

How the data were processed

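Polyadenylated RNA of 2 control and 2 Qk_KO libraries was read on an Ion Proton instrument, as stated in the labels. What the authors deposited is 1 table of TPM values per library, with Entrez numbers and gene symbols. STAR 2.4.1d, RSEM 1.3.0 and builds mm10 and GRCm38.p4 are named in the submitters' processing notes. The annotation, filters, strand setting and read numbers were not given in the sources used here.

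Values were taken as log2(TPM + 1), and genes averaging 1 TPM or more were tested with limma 3.58.1 (mean-variance trend, two-sided, 5.57 degrees of freedom) in R 4.3.3, adjusted by Benjamini-Hochberg over 13260 genes. The fit was tested on simulated data. An exact permutation test of 2 against 2 libraries cannot give a p below 0.333. Intervals are 95% intervals of the fit. Alternatives were 2 pseudocounts (0.5 and 0.1), 2 filters, median-ratio and quantile scaling, limma without a trend or robust, the replicate number as a block, small RNA genes left out, loess removal of the trend on GC content (12462 genes), and leaving out each library, with the filter applied to the remaining 3.

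The 10 genes and all lists were chosen with earlier results of these data known. Named were all 10 genes, Qk, up to 5 called genes of each list or else its 2 most abundant, and 5 genes each most like Dusp1 and Fos in pattern; other names, marker genes among them, and the search of 3' untranslated regions were added after the values were seen. Gene positions and promoter windows came from RefSeq (GRCm38.p6). Figures were drawn with matplotlib 3.10.9.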

Additional observations from a re-analysis of the deposited data

How the results depend on the processing

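The 430 genes called changed in number by over 1.5 times under several settings: 0 with no filter on low values (4327 at an unadjusted p under 0.05 in limma), 649 when the minimum mean was 5 TPM, 41 without limma's trend, 769 with small RNA genes left out, 693 with the GC trend removed, and 4 to 148 without 1 library (control replicate 2 and Qk_KO replicate 2 being those left out; 10 with control replicate 1 left out, 60 with Qk_KO replicate 1). With the replicate block 1278 genes passed, and 1298 with the block and the GC trend removed. Fosl1 passed with the replicate block (adjusted p = 0.0169) and with the block and the GC trend removed together (0.0213). The replicate numbers only name the libraries, and deviations of same-numbered libraries correlated at 0.114 across genes. Of the 10 genes, 1 passed in the main setting, 2 (Dusp1 and Fosl2) with that minimum of 5 TPM, with the replicate block, with small RNA genes left out, and with the GC trend removed with or without the block. It was 0 with no filter, quantile normalization or no trend, and 0 to 0 without 1 library. The log2 fold change of Fos turned from -0.25 to 0.063 without Qk_KO replicate 1, and ranged from -0.560 to 0.063 without 1 library. That of Ier2 turned from 0.04 to -0.081 with the GC trend removed, also with the block, and to -0.041 without control replicate 1. The causes were not tested. The other 8 genes kept their sign under every alternative that tested them. Read depth is unknown, so counting error could not be stated.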
